A study of Mus musculus with 4 samples.

Results

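The genes described here are the integrin subunits and the laminin chains of the mouse. They were taken from the deposited table as the protein-coding genes whose symbol names an integrin alpha subunit, an integrin beta subunit or a laminin alpha, beta or gamma chain. The rule found 37 of the 39179 gene identifiers of the table: 18 integrin alpha genes, 8 integrin beta genes and 11 laminin genes. The rule uses symbols and gene type alone, but it was chosen with earlier results of these data known. RNA had been sequenced from cardiac progenitor cells derived from the mouse embryonic stem cell line iGATA6, in which Gata6, encoding a zinc finger factor needed for heart and endoderm, can be induced. One group had received 0.1% DMSO, the solvent, and the other cucurbitacin I hydrate at 10 µM, a triterpenoid from plants that blocks signalling by JAK2 and STAT3, both for 2 days. Each group held 2 libraries, called DMSO 1 and 2 and cucurbitacin I 1 and 2 here. Both groups carry the inducible Gata6, so the comparison shows the compound against its solvent in this 1 line only. The compound was added on day 6, and the labels give the harvest as day 8 in the titles and as day 10 in the protocol for extraction. Separate cultures are not mentioned for the replicates, and the p-values therefore cover the spread between these libraries alone, which may be technical.

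Integrins are receptors of 1 alpha and 1 beta subunit that span the cell membrane and bind matrix proteins outside the cell, or counter-receptors on other cells. Inside the cell their tails are coupled to actin through talin, kindlin and the proteins of the adhesion plaque. Laminins are secreted trimers of an alpha, a beta and a gamma chain that form the sheet of basement membranes, where integrins and dystroglycan bind them. In the heart, integrins of muscle cells anchor the contractile apparatus to this matrix.

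The libraries held 23759431 to 27069312 counts over genes. Of 16722 genes tested with edgeR's quasi-likelihood test, 2318 were higher and 3259 lower with cucurbitacin I at a Benjamini-Hochberg adjusted p below 0.05, and the median log2 fold change was -0.01. With library totals alone as scaling, 6.33% of all genes were higher and 28.5% lower, and the median was -0.24. Cardiomyocyte markers were present in all 4 libraries, as the label of the cells has it. Their summed level over 12 genes was 9411 and 11990 CPM (counts scaled by TMM to a common library size) in DMSO and 19220 and 24280 CPM in cucurbitacin I, and 8 of the 12 were higher. Smooth muscle markers, 8 genes, summed to 4074 and 5739 CPM in DMSO and to 35280 and 26250 CPM in cucurbitacin I, with 6 higher. The part of these cell type differences in the results on integrins and laminins was not tested, and in these bulk samples fewer cells of a type and less RNA per cell cannot be told apart.

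Of the 33 subunit genes with enough counts to be tested, 8 were higher with cucurbitacin I, which is 24.2% against 13.9% of all genes tested. Another 9 were lower, which is 27.3% against 19.5% of all genes. With a mean of at least 50 counts, 3 of 25 subunit genes were lower, a share below the 18.3% of all genes. The 8 that rose were Itga1, Itga5, Itga7, Itga10, Itgav, Itgb1, Itgb3 and Lamb1. Among those that fell were Itga2, Itga2b, Itgal, Itgam, Itgb2, Itgb4, Lama2 and Lama3. The other 16 did not pass, and the median log2 fold change over the 33 genes was -0.14. The libraries of the groups did not overlap for 20 of the 33, a smaller share than the 73.0% of all genes tested. Itgae, Itgax, Itgb6 and Itgb7 had too few counts to be tested. Which genes were called higher depended on the DMSO libraries. Without DMSO 1, edgeR called 0 subunit genes higher, with 8 at an unadjusted p below 0.05, and 4 lower, and over all genes it called 2.28% higher and 8.55% lower. Without DMSO 2 it called 3 subunit genes higher and 8 lower, and 6.21% and 12.0% of all genes. The 8 that rose and the 9 that fell kept their sign under every alternative in which they were tested.

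**Figure D1:**
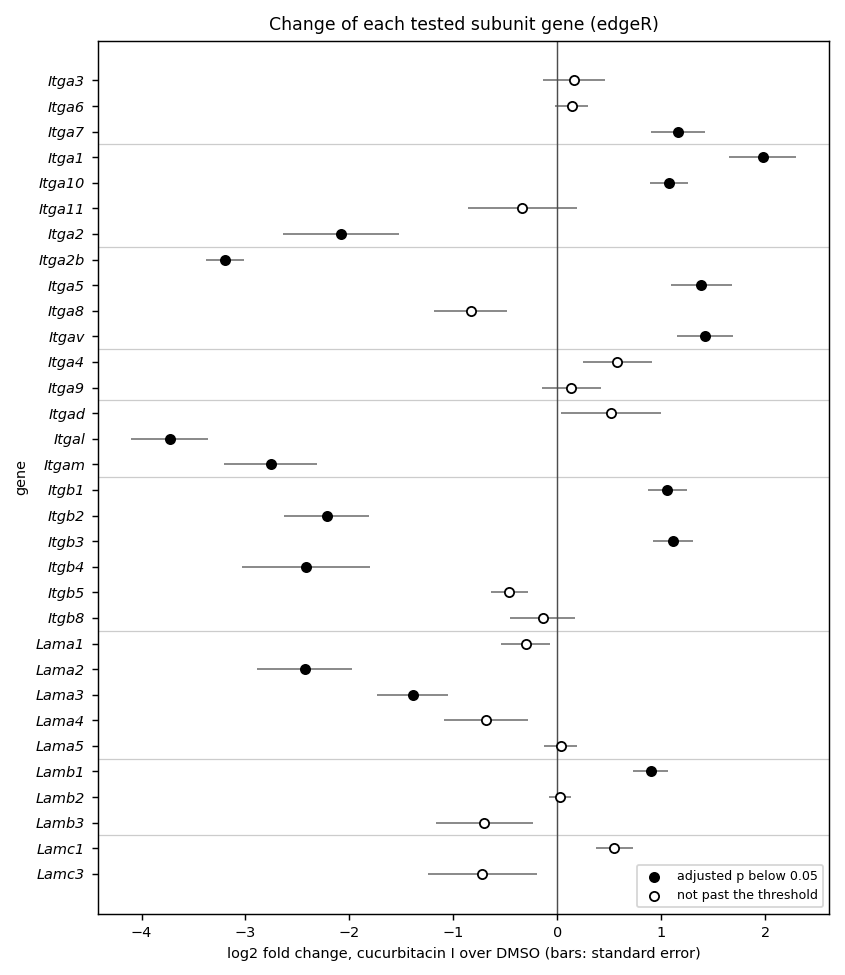
Log2 fold change of cucurbitacin I against DMSO for subunit genes tested, with bars for the standard error, filled circles for an adjusted p below 0.05 and lines between the roles. The values run from -3.73 for Itgal to 1.98 for Itga1, and 8 genes passed the threshold as higher.

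Among the beta subunits, Itgb1 rose, the partner of most alpha subunits and the main integrin beta chain of muscle. Itgb1 (ENSMUSG00000025809, mm10 chromosome 8, 128685654 to 128733200, plus strand) stood at 836.7 and 987.8 CPM in DMSO and at 2141 and 1662 CPM in cucurbitacin I. The means were 912 ± 107 CPM (SD, n = 2) and 1901 ± 339 CPM (SD, n = 2), and the log2 fold change was 1.06 (SE 0.19, adjusted p = 0.0135). Both cucurbitacin I libraries lay above both DMSO libraries. Itgb3, which pairs with Itgav and, on platelets, with Itga2b, was at 160.2 and 144.7 CPM in DMSO and at 389.8 and 270.7 CPM in cucurbitacin I. It rose by 1.12 on the log2 scale (SE 0.19, adjusted p = 0.0121), again with no overlap. Without DMSO 1 the adjusted p was 0.0856 for Itgb1 and 0.0555 for Itgb3, and without DMSO 2 it was 0.0538 for Itgb3. Itgb5, another partner of Itgav, was at 120.0 and 165.2 CPM in DMSO and at 94.6 and 112.7 CPM in cucurbitacin I. These libraries did not overlap either, but the log2 fold change of -0.46 did not pass (adjusted p = 0.103). Itgb8, a further partner of Itgav that binds latent TGF-beta, had 13.8 to 25.7 CPM over the 4 libraries, with overlap between the groups (adjusted p = 0.753).

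A pair of start regions is shown for subunits that rose, because the beta subunit shared by most receptors and its fibronectin-binding partner Itga5 changed in the same direction. Each runs from 250 bases before to 50 bases after a RefSeq gene start on GRCm38.p6, written 5′ to 3′ on the strand of the gene. The capitals mark matches on either strand to CATTCC, the core of sites of TEAD factors, which act with YAP, and to GGGCGG, the core of SP1 sites. Itgb1 lies at chr8:128685404-128685703 on the plus strand and Itga5 at chr15:103366742-103367041 on the minus strand.
Itgb1: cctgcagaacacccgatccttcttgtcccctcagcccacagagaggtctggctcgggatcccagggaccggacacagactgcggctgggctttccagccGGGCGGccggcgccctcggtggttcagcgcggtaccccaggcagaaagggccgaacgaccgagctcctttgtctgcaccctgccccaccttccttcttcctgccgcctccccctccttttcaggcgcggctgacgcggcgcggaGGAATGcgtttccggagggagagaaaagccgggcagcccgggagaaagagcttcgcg
Itga5: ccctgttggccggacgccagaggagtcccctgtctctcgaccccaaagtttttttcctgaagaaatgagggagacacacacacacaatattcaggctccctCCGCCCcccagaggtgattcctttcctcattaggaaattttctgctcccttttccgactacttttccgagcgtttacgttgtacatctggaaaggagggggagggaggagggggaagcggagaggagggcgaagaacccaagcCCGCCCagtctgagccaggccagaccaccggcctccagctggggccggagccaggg
The Itgb1 window held 1 CATTCC match, on the reverse strand and 7 bases before the start, and GGGCGG. The Itga5 window held GGGCGG on the reverse strand in 2 places and no CATTCC.

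The alpha subunits that bind the RGD tripeptide of fibronectin and vitronectin split. Itga5, whose protein with Itgb1 is the main fibronectin receptor (ENSMUSG00000000555, mm10 chromosome 15, 103344289 to 103366763, minus strand), was at 145.1 and 164.8 CPM in DMSO and at 525.9 and 284.1 CPM in cucurbitacin I. It rose by 1.39 on the log2 scale (SE 0.29, adjusted p = 0.0204). Itgav, the alpha chain of vitronectin receptors, was at 90.5 and 85.2 CPM in DMSO and at 300.8 and 169.3 CPM in cucurbitacin I, so its log2 fold change came to 1.42 (SE 0.27, adjusted p = 0.0153). For both genes cucurbitacin I 1 was the highest library and the groups did not overlap. Leaving out DMSO 1 gave an adjusted p of 0.105 for Itga5 and 0.0727 for Itgav, and leaving out DMSO 2 gave 0.0624 and 0.0622. Itga2b, the alpha chain of the platelet fibrinogen receptor and a marker of early blood progenitors, went the other way (ENSMUSG00000034664, mm10 chromosome 11, 102453297 to 102470122, minus strand). Its level was 63.1 and 83.2 CPM in DMSO and 7.46 and 8.49 CPM in cucurbitacin I, so that each DMSO library was far above both treated ones. The log2 fold change was -3.20 (SE 0.18, adjusted p = 0.00147), 9.17-fold lower. It passed in every alternative, with an adjusted p of at most 0.00324. Itga8, which pairs with Itgb1 and binds nephronectin, had 50.8 and 76.2 CPM in DMSO and 24.1 and 47.3 CPM in cucurbitacin I, without overlap, and its log2 fold change of -0.83 did not pass (adjusted p = 0.121). Without cucurbitacin I 2 it passed, at -1.40 (adjusted p = 0.00947).

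Of the 4 collagen-binding alpha subunits, Itga1 and Itga10 rose, Itga2 fell and Itga11 did not pass. Itga1, whose protein binds collagen IV and laminin on smooth muscle and other mesenchymal cells (ENSMUSG00000042284, mm10 chromosome 13, 114958079 to 115101964, minus strand), was at 47.0 and 57.3 CPM in DMSO and at 270.6 and 139.8 CPM in cucurbitacin I. The log2 fold change was 1.98 (SE 0.32, adjusted p = 0.0104). The treated libraries differed from each other 1.94-fold and both stood above the DMSO libraries. Itga10, a collagen receptor subunit first known from cartilage, rose from 4.61 and 5.19 CPM to 10.7 and 9.99 CPM, by 1.07 on the log2 scale (SE 0.18, adjusted p = 0.0118). The adjusted p was 0.0613 for Itga1 and 0.0733 for Itga10 without DMSO 1. Itga2, the collagen receptor subunit of platelets and epithelium, fell from 2.74 and 1.25 CPM to 0.615 and 0.316 CPM, with a log2 difference of -2.08 (SE 0.55, adjusted p = 0.0375). It was counted 15 and 7 times in cucurbitacin I and passed the filter on low counts only through DMSO. With a mean of at least 50 counts it was not tested. Its adjusted p was 0.171 without DMSO 1, 0.0912 without cucurbitacin I 2 and 0.0549 with limma-voom. Itga11, the collagen receptor subunit of fibroblasts, stayed between 1.08 and 3.17 CPM with overlapping groups (adjusted p = 0.647).

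Of the 3 laminin-binding alpha subunits, Itga7 rose. It encodes the laminin receptor subunit of skeletal and heart muscle and was at 4.04 and 5.23 CPM in DMSO and at 8.52 and 12.2 CPM in cucurbitacin I. The log2 fold change was 1.16 (SE 0.26, adjusted p = 0.0236), and the adjusted p was 0.121 without DMSO 1, 0.0534 without DMSO 2 and 0.0546 without cucurbitacin I 2. Itga6, a laminin receptor subunit of epithelium and many stem cells, was at 335.7 and 340.8 CPM in DMSO and at 422.9 and 320.9 CPM in cucurbitacin I. The groups overlapped and the log2 fold change of 0.14 did not pass (adjusted p = 0.535). Itga3, which binds laminins of epithelium, had 68.2 and 79.4 CPM in DMSO and 108.5 and 56.6 CPM in cucurbitacin I (adjusted p = 0.701). The treated libraries of Itga3 lay on either side of the DMSO libraries, and without cucurbitacin I 2 the gene passed as higher at 0.56 (adjusted p = 0.0265). Itga4 and Itga9, which share ligands such as VCAM1, tenascin and fibronectin, did not pass. Itga4 was at 9.66 and 17.9 CPM in DMSO and at 16.9 and 24.1 CPM in cucurbitacin I (adjusted p = 0.231), and Cerkl, a gene on the opposite strand that shares exon bases with it, held 17.1% as many counts. Itga9 ranged from 152.1 to 260.8 CPM over the 4 libraries (adjusted p = 0.735).

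**Figure D2:**
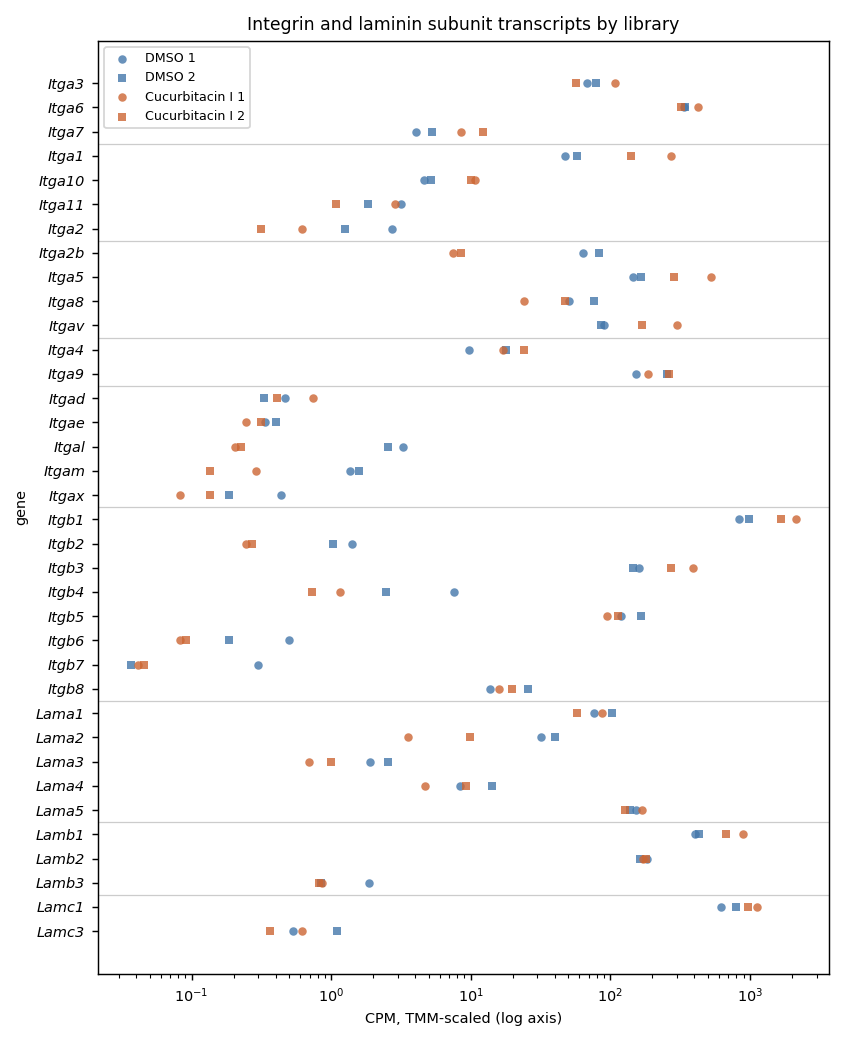
Level of subunit genes in each library in CPM on a log axis, with DMSO in blue, cucurbitacin I in orange, circles for replicate 1 and squares for replicate 2. Itgb1 is at 836.7 and 987.8 CPM in DMSO and at 2141 and 1662 CPM in cucurbitacin I, and Itga2b is at 63.1 and 83.2 CPM against 7.46 and 8.49 CPM.

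Of the leukocyte subunits, Itgal, Itgam and Itgb2 fell, Itgad did not pass, and Itgae, Itgax and Itgb7 were not tested. Itgal, the alpha chain of LFA-1, which holds leukocytes to ICAM proteins, was at 3.27 and 2.54 CPM in DMSO and at 0.205 and 0.226 CPM in cucurbitacin I. Its log2 fold change of -3.73 (SE 0.37, adjusted p = 0.00339) was the lowest of the 33 genes. Itgal, Itgam and Itgb2 passed the filter on low counts only through their DMSO libraries, with 3 to 7 counts in each treated library, and none of them was tested with a mean of at least 50 counts. Itgb2, the beta chain shared by LFA-1 and the other leukocyte integrins, went from 1.40 and 1.03 CPM to 0.246 and 0.271 CPM, with a log2 difference of -2.22 (SE 0.41, adjusted p = 0.0141). In both genes every DMSO library exceeded every treated library. Itgam, the alpha chain of the Mac-1 receptor of myeloid cells, was counted 41 and 43 times in DMSO and 7 and 3 times after treatment, a scaled ratio of 6.85 (exact 95% binomial interval 3.55 to 14.8, counting error only), with an edgeR adjusted p of 0.0104. Without DMSO 1 the adjusted p of Itgb2 was 0.0866, and without cucurbitacin I 1 it was 0.0548. Itgax, of dendritic cells, was counted 13 and 5 times in DMSO against 2 and 3 times after treatment. Itgae, which binds E-cadherin on T cells, was counted 10 and 11 times in DMSO against 6 and 7 times. Itgb7, the beta partner of Itga4 and Itgae, was counted 9 times in DMSO 1 and 1 time in each other library, so its groups overlapped. Itgb6, an epithelial partner of Itgav that was not tested either, was counted 15 and 5 times in DMSO against 2 and 2 times. Itgad, a further leukocyte subunit, did not pass (adjusted p = 0.441). It shares exon bases with Cox6a2 on the opposite strand, which held 5105 counts against 50 of Itgad, and whether counting used the strand is not given, so the reads of the pair cannot be told apart.

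Most of the platelet and myeloid markers tested moved with these genes. The 11 megakaryocyte and platelet markers summed to 46.0 and 59.5 CPM in DMSO and to 5.12 and 6.51 CPM in cucurbitacin I, 10 of the 11 were lower, and Gp9 and Gp6 were at 0 in both treated libraries. Gp1ba, at 2.79 and 1.94 CPM, and Gp1bb, at 1.23 and 2.35 CPM, held most of the treated sums. Of 14 myeloid leukocyte markers, 10 of the 12 tested were lower, with sums of 58.2 and 57.4 CPM against 21.1 and 19.7 CPM. Csf1r alone held 17.95 and 17.17 CPM of the treated sums, against 20.05 and 18.55 CPM in DMSO. It did not pass (edgeR adjusted p = 0.45), and neither did Cd68 (0.324). Fcgr3, Tyrobp, C1qa and C1qb were at 0 in the treated libraries. Several markers called lower passed the filter on low counts only through DMSO. Examples are Pf4, with 0 and 2 counts in cucurbitacin I, and Cd14, with 3 and 1. The part of these cells in the results on Itga2b, Itgal, Itgam and Itgb2 was not tested. The 8 lymphocyte markers were all below the count filter, with sums of 0.201 to 0.442 CPM in DMSO and 0.226 to 0.287 CPM in cucurbitacin I. Endothelial markers summed to 143.1 and 186.2 CPM in DMSO and to 26.9 and 37.8 CPM in cucurbitacin I, with 6 of 11 lower and Emcn at 0 in the treated libraries.

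**Figure D3:**
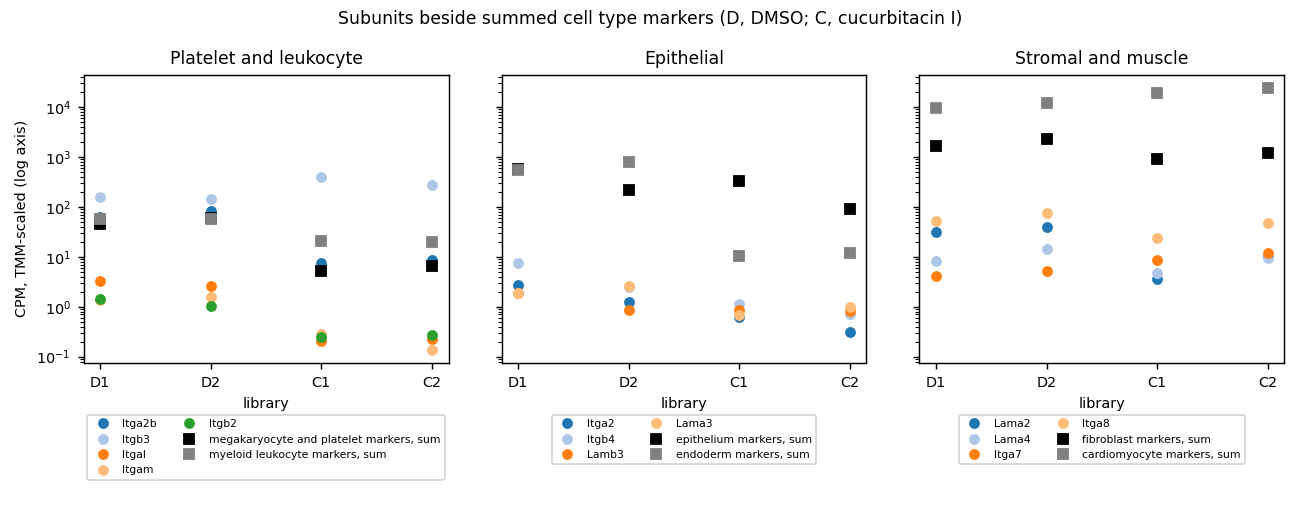
Level in each library, in CPM on a log axis, of subunit genes (circles) and of the summed markers of the cell types named beside them (squares). The megakaryocyte and platelet sum is 46.0 and 59.5 CPM in DMSO and 5.12 and 6.51 CPM in cucurbitacin I, and Itga2b is at 63.1 and 83.2 CPM against 7.46 and 8.49 CPM.

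Itgb4 and Lama3, both known from epithelium, fell, and Lamb3 and Itga6 did not pass. Itgb4 forms hemidesmosomes with Itga6, and its level was 7.58 and 2.47 CPM in DMSO and 1.15 and 0.723 CPM in cucurbitacin I. The log2 fold change was -2.42 (SE 0.62, adjusted p = 0.0338), and B230344G16Rik, which overlaps it on the opposite strand, held 13.6% as many counts. Lama3 and Lamb3 encode laminin chains of epithelium. Lama3 fell from 1.90 and 2.54 CPM to 0.697 and 0.994 CPM, by 1.39 on the log2 scale (SE 0.34, adjusted p = 0.0306). It was not tested with a mean of at least 50 counts. Lamb3 was at 1.87 and 0.847 CPM in DMSO and at 0.861 and 0.813 CPM in cucurbitacin I, and did not pass (adjusted p = 0.294). DMSO 1 was above DMSO 2 for Itgb4, Itga2 and Lamb3, by 3.08-fold for Itgb4. The 9 epithelial markers summed to 580.1 CPM in DMSO 1, 213.7 CPM in DMSO 2, 326.5 CPM in cucurbitacin I 1 and 91.1 CPM in cucurbitacin I 2. Krt18, Krt8 and Krt19, which did not pass, held 214.6, 64.3 and 24.7 CPM in cucurbitacin I 1, most of its sum. The 5 lower were Epcam, Cdh1, Krt7, Cldn6 and Cldn7, each without overlap between the groups. Cldn4 did not overlap either and did not pass. The part of the epithelial markers in the falls was not tested. Without DMSO 1 the adjusted p was 0.114 for Itgb4 and 0.0795 for Lama3. Without cucurbitacin I 2 it was 0.0683 for Itgb4 and with limma-voom 0.0742, and for Lama3 it was 0.134 without DMSO 2 and 0.11 without cucurbitacin I 1.

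Among the laminins, 1 chain of the common trimers rose and the muscle alpha chain fell. Lamb1, the beta chain of most embryonic basement membranes (ENSMUSG00000002900, mm10 chromosome 12, 31265234 to 31329644, plus strand), was at 401.6 and 433.5 CPM in DMSO and at 885.9 and 673.3 CPM in cucurbitacin I. The means were 418 ± 22.6 CPM (SD, n = 2) and 780 ± 150 CPM (SD, n = 2), and the log2 fold change was 0.90 (SE 0.17, adjusted p = 0.0148). Its adjusted p was 0.0888 without DMSO 1 and 0.0525 without DMSO 2. Lamc1, the gamma chain of nearly all laminin trimers, was at 624.3 and 798.5 CPM in DMSO and at 1120 and 959.8 CPM in cucurbitacin I. These libraries did not overlap, and the log2 fold change of 0.55 did not pass in edgeR (SE 0.18, adjusted p = 0.0627). It passed with DESeq2 (adjusted p = 0.0128) and with no filter on low counts (adjusted p = 0.0374). In the authors' deposited table Lamc1 had an adjusted p of 0.0238. That table put 9 subunit genes higher and 9 lower at an adjusted p below 0.05, with 8 and 9 of them called here as well. Lamb2, the beta chain of mature muscle and vessel basement membranes, was at 182.9 and 161.6 CPM in DMSO and at 172.5 and 179.0 CPM in cucurbitacin I, with a log2 difference of 0.03 (SE 0.11, adjusted p = 0.855). Lamc3 stayed between 0.361 and 1.10 CPM (adjusted p = 0.334).

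Lama2, the alpha chain of the main laminin around muscle fibres, fell (ENSMUSG00000019899, mm10 chromosome 10, 26981288 to 27616942, minus strand). Its level was 31.8 and 40.2 CPM in DMSO and 3.52 and 9.89 CPM in cucurbitacin I, with a log2 difference of -2.43 (SE 0.46, adjusted p = 0.0149), and it passed with every other test, scaling, filter and left-out library, though not at a threshold of 0.01. The treated libraries differed 2.81-fold from each other and both were below the DMSO libraries. Lama2 is also made by fibroblasts. Their 10 markers summed to 1659 and 2284 CPM in DMSO and to 891.7 and 1212 CPM in cucurbitacin I. Of the 9 tested, 7 were lower, and Fap was at 0 in the treated libraries. Col1a1, at 385.3 and 411.3 CPM, and Col3a1, at 412.5 and 678.3 CPM, held most of the treated sums and did not pass. The part of the fibroblast markers in the fall of Lama2 was not tested. The alpha chains of early and of widespread basement membranes did not pass. Lama1 had 76.2 and 103.0 CPM in DMSO and 87.0 and 58.1 CPM in cucurbitacin I (adjusted p = 0.357). Lama5 had 153.3 and 137.0 CPM against 169.7 and 127.2 CPM, with a log2 difference of 0.03 (SE 0.16, adjusted p = 0.89). Lama4, of vessels and mesenchyme, was at 8.32 and 14.1 CPM in DMSO and at 4.67 and 9.26 CPM in cucurbitacin I, with overlap (adjusted p = 0.24). Without cucurbitacin I 2 it passed, at -1.26 (adjusted p = 0.0451).

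A further pair of windows is shown because of a STAT match, the factor family downstream of the kinase the compound is known to block, and a match that few windows hold. In Itga10, at chr3:96645334-96645633 on the plus strand, the capitals mark TTCNNNGAA, the core of STAT sites, and CATTCC. In Lama2, at chr10:27616893-27617192 on the minus strand, they mark a CArG box, the site of serum response factor, and GGGCGG.
Itga10: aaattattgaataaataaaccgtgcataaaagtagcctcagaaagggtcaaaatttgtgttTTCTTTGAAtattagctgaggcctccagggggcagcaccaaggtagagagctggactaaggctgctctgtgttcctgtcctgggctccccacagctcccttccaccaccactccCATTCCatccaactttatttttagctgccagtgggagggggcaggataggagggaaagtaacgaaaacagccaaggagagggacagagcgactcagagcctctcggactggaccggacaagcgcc
Lama2: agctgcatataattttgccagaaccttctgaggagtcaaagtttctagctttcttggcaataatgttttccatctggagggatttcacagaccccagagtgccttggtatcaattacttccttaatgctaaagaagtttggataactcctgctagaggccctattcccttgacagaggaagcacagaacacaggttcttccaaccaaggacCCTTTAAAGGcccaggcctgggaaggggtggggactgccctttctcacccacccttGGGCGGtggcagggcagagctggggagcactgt
RefSeq windows were held for 23 of the 37 genes, 26 windows in all, out of 32851. The CArG box was in 1.63% of all windows and in those of Itgb6 and Lama2, none of them a gene that rose. CATTCC was in 14.7% of all windows and in those of Itga10, Itgb1 and Lamb3. TTCNNNGAA was in 8.3% of all windows and in those of Itga10 and Lamb2. AGATAA, the core of GATA sites, was in 11.2% of all windows and in that of Itgax, CCGGAAGT, of ETS factors, was in 3.89% and in 0 of the 23 genes, and GGGCGG was in 35.7% and in 11 of the 23 genes. Both strands were searched, and no letters overlap between the motifs marked in a window. A match is a description of these letters, and no match says only that they are not in this window.

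Per length of exon, the make-up of the receptors and of the laminins differed between the groups. Itgb1 made up 76.2% and 76.6% of all beta subunit transcripts in DMSO and 84.8% and 83.7% in cucurbitacin I, while Itgb5 made up 12.6% and 14.7% against 4.30% and 6.52%. Itga5 made up 22.3% and 20.97% of the alpha subunit transcripts in DMSO and 42.8% and 33.1% in cucurbitacin I. Itga6 took 28.2% and 23.7% in DMSO and 18.8% and 20.5% in cucurbitacin I. The ratio of Itga5 to Itga6 per length was 0.791 and 0.885 in DMSO and 2.28 and 1.62 in cucurbitacin I. With the longest coding transcript as the length, a choice made after seeing the data, it was 0.425 and 0.476 against 1.22 and 0.871, so which of the genes led in cucurbitacin I 2 depended on the length used. Itga2b exceeded Itgav per length in DMSO, with ratios of 1.37 and 1.92, and was far below it in cucurbitacin I, at 0.0488 and 0.0988. The ratio of Itgb3 to Itgb5 went from 0.804 and 0.528 to 2.48 and 1.45. The groups overlapped in the ratio of Itgb1 to Itgb3, at 7.55 and 9.87 against 7.94 and 8.88, and in that of Lama1 to Lama5, at 0.585 and 0.885 against 0.603 and 0.537. Lamb1 over Lamb2 was 1.35 and 1.65 in DMSO and 3.15 and 2.31 in cucurbitacin I.

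Per alpha chain transcript, both cucurbitacin I libraries held more beta and gamma chain transcripts than the DMSO libraries. The beta chains together stood at 2.93 and 2.65 times the alpha chains per length in DMSO and at 4.80 and 5.23 times in cucurbitacin I, and the gamma chains at 3.27 and 3.71 times against 5.57 and 6.26 times. Lama5 was 55.8% and 45.3% of the alpha chain transcripts in DMSO and 60.7% and 59.9% in cucurbitacin I, and Lama2 was 8.07% and 9.28% against 0.879% and 3.25%. Lamc1 was 95.6% to 99.4% of the gamma chain transcripts in all 4 libraries. For the integrins, alpha transcripts per beta transcript were 0.490 and 0.504 in DMSO and 0.403 and 0.357 in cucurbitacin I. The libraries of the groups did not overlap in these 3 chain ratios, with either length. They overlapped in the ratio of laminin beta to gamma chains, at 0.897 and 0.716 in DMSO and 0.862 and 0.835 in cucurbitacin I. The ratios are given as a description with no test, and an exact 2-sided permutation test of 2 libraries against 2 could not go below 0.33.

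**Figure D4:**
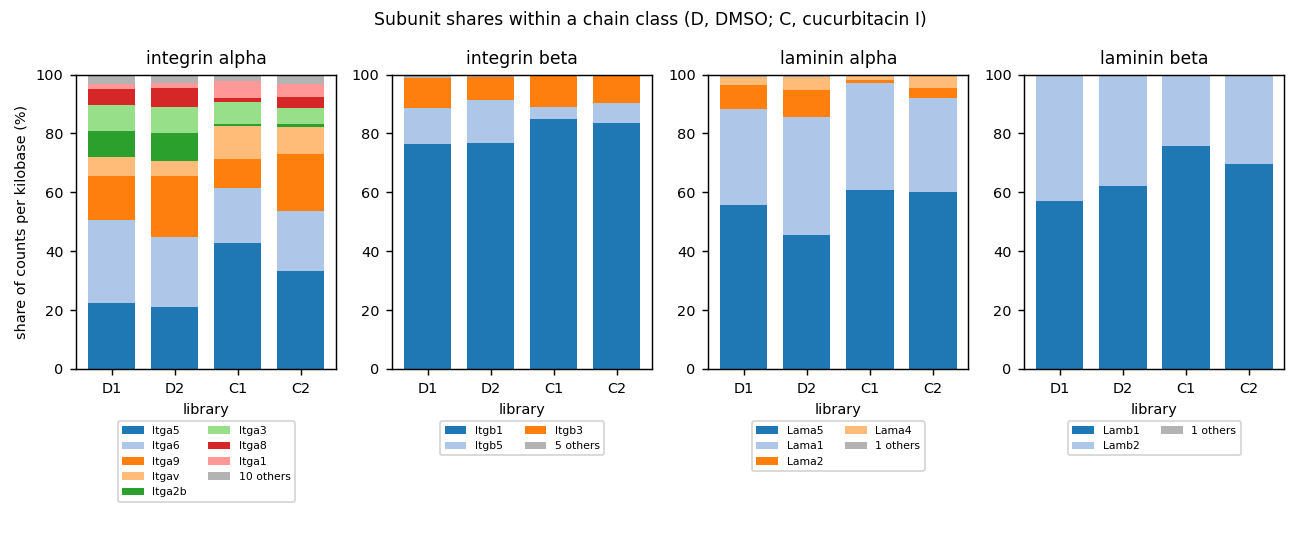
Stacked shares, in percent of counts per kilobase of exon, of the subunits of the integrin alpha, integrin beta, laminin alpha and laminin beta classes in each library, with the low subunits joined in grey. Itgb1 leads the beta subunits in all 4 libraries, and Itga5 takes 22.3% and 20.97% of the alpha subunits in DMSO and 42.8% and 33.1% in cucurbitacin I.

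Of 28 activator and adhesion plaque genes, which couple integrin tails to actin, 12 were higher (42.9%, against 13.9% of all genes) and 3 lower (10.7%, against 19.5%), and 13 did not pass, with a median log2 fold change of 0.63 against -0.01 over all genes. This list and those below were chosen with earlier results of these data known, so their shares beside all genes are descriptions only. Lims2, a PINCH adaptor that binds integrin-linked kinase, was at 5.35 and 9.24 CPM in DMSO and at 56.7 and 44.6 CPM in cucurbitacin I, with a log2 difference of 2.80 (SE 0.28, adjusted p = 0.00355). Tgfb1i1, the paxillin relative Hic-5 of smooth muscle, was at 144.0 and 199.2 CPM against 473.2 and 545.4 CPM, with a log2 difference of 1.57 (SE 0.19, adjusted p = 0.00513). Tns3, a tensin that links integrin tails to actin, fell by 1.48 on the log2 scale (SE 0.09, adjusted p = 0.00159). Fermt3, the kindlin of blood cells, fell by 1.89 (SE 0.26, adjusted p = 0.00694). Ilk, the integrin-linked kinase, its partners Parva, Lims1 and Rsu1, and Tln1, a talin, were among the 12 as well. Leaving out DMSO 1 changed the counts to 6 higher and 2 lower.

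Of 20 basement membrane genes, 5 were higher (25.0%, against 13.9% of all genes) and 7 lower (35%, against 19.5%), and the median log2 fold change was 0.18. Col4a2, a chain of the main type of collagen IV network, rose by 1.22 on the log2 scale (SE 0.22, adjusted p = 0.0133), and Hspg2, which encodes perlecan, rose by 1.12 (SE 0.23, adjusted p = 0.0186). Without DMSO 1 their adjusted p was 0.0748 and 0.099, without DMSO 2 that of Hspg2 was 0.0608, and without DMSO 1 edgeR called 0 of the list higher, with 5 at an unadjusted p below 0.05, and 5 lower. Without DMSO 2 it called 4 lower. Frem2, of the Fraser complex under embryonic epithelium, fell by 1.29 (SE 0.11, adjusted p = 0.00246). Egfl6, which encodes a secreted matrix protein, was counted 39 and 59 times in DMSO against 1 and 2 times. The pooled ratio was 26.6 (exact 95% binomial interval 8.85 to 131.3, counting error only), with an edgeR adjusted p of 0.00598. Egfl6 passed the filter on low counts only through DMSO. Of the 19 genes of laminin receptors other than integrins, 18 were tested, with 4 higher (22.2%) and 3 lower (16.7%, a share below that of all genes), and a median of 0.07. Utrn, which encodes utrophin, rose by 0.59 (SE 0.10, adjusted p = 0.0131), and Pomt2, an enzyme that puts the first sugar on dystroglycan, by 0.51 (SE 0.11, adjusted p = 0.02). The syndecans Sdc2 and Sdc1 fell by 1.19 (SE 0.13, adjusted p = 0.00396) and by 0.79 (SE 0.12, adjusted p = 0.00863). Without DMSO 1, 0 of this list were called higher, with 4 at an unadjusted p below 0.05, and 1 lower, with adjusted p of 0.0896 for Utrn, 0.11 for Pomt2 and 0.0531 for Sdc1. That of Pomt2 was also 0.0776 without DMSO 2, 0.0567 without cucurbitacin I 1 and 0.102 with library totals alone. Without DMSO 2, and likewise without cucurbitacin I 1, it was 2 higher.

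Of 26 ligands of integrins other than laminins, 25 were tested. Of these, 14 were lower (56.0%, against 19.5% of all genes) and 3 higher (12.0%, against 13.9%), and the median log2 fold change was -1.18. The ligands too were listed with earlier results of these data known. Vtn, which encodes the plasma protein vitronectin made by liver and yolk sac endoderm, was at 59.2 and 62.2 CPM in DMSO and at 0.902 and 0.994 CPM in cucurbitacin I, with a log2 difference of -5.997 (SE 0.15, adjusted p = 0.000337). Fgb, a fibrinogen chain, was at 18.2 and 28.6 CPM against 0.164 and 0.226 CPM, with a log2 difference of -6.88 (SE 0.39, adjusted p = 0.00152). It was counted 544 and 776 times in DMSO and 4 and 5 times after treatment, so it passed the filter on low counts only through DMSO. Fgg, Vwf, Icam2 and Madcam1, also among the 14, had 1 to 6 counts in each treated library and passed in the same way. Such genes, Fga included, could be tested only through their DMSO level, so the share lower is partly set by the filter. Fga, another fibrinogen chain, was counted 29 and 123 times in DMSO, 152 times in all, and 0 times after treatment. With 3 counts set for the treated group, it was 41.3-fold lower than the pooled DMSO libraries. The DMSO libraries differed 4.67-fold, so this value is no bound for each of them. The 10 endoderm markers summed to 553.8 and 800.3 CPM in DMSO and to 10.4 and 12.0 CPM in cucurbitacin I, with 9 lower, and their part in the falls of these ligands was not tested. Mfge8, a secreted ligand of Itgav receptors, rose by 1.16 (SE 0.27, adjusted p = 0.0266), and Tnc, which encodes tenascin-C, by 1.22 (SE 0.30, adjusted p = 0.03). Without DMSO 1 the adjusted p of Mfge8 was 0.105 (0.101 without DMSO 2), with 1 ligand higher and 11 lower, while 6 were higher when cucurbitacin I 2 was left out.

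**Figure D5:**
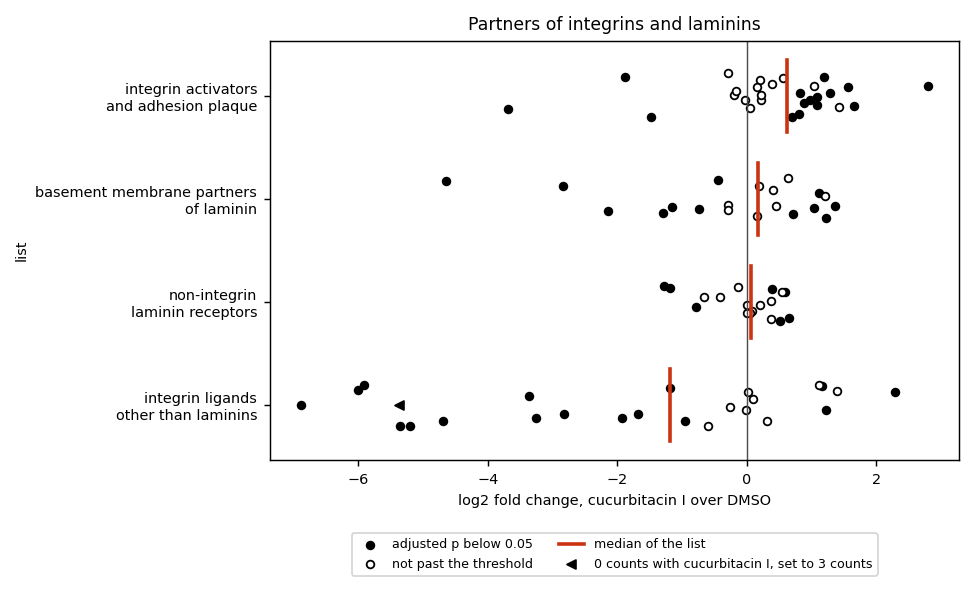
Log2 fold change of cucurbitacin I against DMSO for every tested gene of the lists of integrin activators and plaque proteins, basement membrane partners, other laminin receptors and other integrin ligands, with a red line at the median of each list and a triangle for Fga, set to 3 counts in cucurbitacin I. The medians are 0.63, 0.18, 0.07 and -1.18, against -0.01 over all genes tested.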

How the data were processed

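RNA-seq libraries of 4 samples, 2 in DMSO and 2 in cucurbitacin I, were grouped by sample title. Per the file headers, the 1 deposited table gives raw counts for each gene in each library. Further columns, also deposited, hold a normalized signal (counts over a size factor of the library), a log2 fold change with its standard error and test statistic (a score) and a p-value with its adjusted p-value; DESeq2's standard column names appear per the file headers. The submitters' processing notes name STAR 2.3.0e, HTSeq 0.6.0 and mm10. For annotation release and strand of counting, the sources used here give nothing. Of 43374 lines, 4195 repeated a gene and were left out.

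The test was that of edgeR 4.0.16 under R 4.3.3 (genes kept by filterByExpr at a minimum count of 10, TMM, 2-sided quasi-likelihood test, Benjamini-Hochberg adjustment over 16722 genes, threshold 0.05), after the test had been checked on simulated data. CPM values are scaled by TMM. The common biological coefficient of variation was 15.7%, and replicates correlated at 0.99 (DMSO) and 0.991 (cucurbitacin I) on the log2 scale. Exonic lengths came from GENCODE M21, promoter windows from RefSeq on GRCm38.p6. Intervals cover counting error only. Overlaps with another gene are given where it held at least 10% as many counts. Alternatives were DESeq2 1.42.0, limma-voom (limma 3.58.1), other factors, other filters, a replicate block, a threshold of 0.01 and each library left out.

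Named genes are the subunit genes, whatever their result (1 of them is counted but not reported here), and in each of the 4 lists up to 2 genes per direction past the threshold with the smallest adjusted p; Fga, Ilk, Parva, Lims1, Rsu1 and Tln1 fall outside this rule and were picked with their values in view. Members and lists were chosen with earlier results of these data known. Cell type lists not described with the results are neural (1 of 6 tested higher, 3 lower) and pluripotency markers (1 of 5 tested, none past the threshold).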

Additional observations from a re-analysis of the deposited data

How the results depend on the processing

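The counts of subunit genes were 8 to 9 higher with DESeq2, limma-voom, other scaling factors or other filters, with 6 to 10 lower except as given next, and 9 higher and 12 lower with a replicate block, in which Itga4, Itga8, Itgb5 and Lama4 also passed. The replicate block called 15.9% of all genes higher and 22.2% lower. The deviations of same-numbered libraries correlated at 0.256 over 2 pairs, and the libraries share only a number. With a mean of at least 50 counts, 25 subunit genes were tested, with 8 higher and 3 lower. Over all genes that setting gave 14.2% higher and 18.3% lower. At a threshold of 0.01, 0 subunit genes were higher (9 at an unadjusted p below 0.05) and 2 lower. Of basement membrane genes 0 were higher (6 unadjusted) and 3 lower, and of other laminin receptors 0 were higher (6 unadjusted). Of other ligands 0 were higher (4 unadjusted) and 9 lower. The shares of all genes at 0.01 were not computed, so these counts cannot be set beside them. Library totals alone moved the median of all genes to -0.24, called 6.33% higher and 28.5% lower over all genes, and gave 5 lower plaque genes (11 higher) and 1 higher laminin receptor (4 lower).

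Leaving out 1 library, with the lone library left taken to vary as the other group does, gave 0 to 8 subunit genes higher and 4 to 8 lower, 6 to 14 plaque genes higher, 0 to 6 basement membrane genes higher and 4 to 6 lower, 0 to 3 laminin receptors higher and 1 to 3 lower, and 1 to 6 ligands higher. Changes that did not pass the threshold turned in sign. With library totals alone the log2 fold change was -0.075 for Itga3, -0.10 for Itga6, -0.089 for Itga9, -0.21 for Lama5 and -0.21 for Lamb2, and with a mean of at least 50 counts it was -0.0001 for Lamb2. With 1 library left out it ran from -1.20 to 0.19 for Itga11, from -0.38 to 0.56 for Itga3, from -0.069 to 0.33 for Itga6, from -0.19 to 0.56 for Itga9, from -0.52 to 0.38 for Itgb8, from -0.18 to 0.23 for Lama5 and from -0.057 to 0.12 for Lamb2. The cause was not tested. Depth limits Itgae, Itgax, Itgb6 and Itgb7, which had 2 to 21 counts per group.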
